A study of Mus musculus with 24 samples.

Results

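The change in gene expression between ZT13 and ZT1 was measured in the liver of mice with a human PER1 gene that bears the S714G change. ZT, zeitgeber time, counts hours from lights on. The comparison used 6 of the 24 arrays of the series, picked by tissue, genotype and time in the labels: 3 arrays of hPER1 S714G mutant liver at ZT13 and 3 at ZT1. Beside them stand the 3 arrays at ZT13 and 3 at ZT1 of hPER1 S714 control liver, and the 3 at ZT13 and 3 at ZT1 of hPER1 S714G white adipose tissue. All mice were male, 2 months old, on a C57BL/6 background and had lived in light-dark cycles for 10 days, and tissue was frozen in liquid nitrogen before Trizol extraction. The control mice carried human PER1 too, with serine in place of glycine at the site that gives S714G its name. The promoter that drives the human gene, the number of founder lines and the state of the mouse Per1 gene are not given in the sources used here. The labels speak of independent repeats without saying that each array was a separate animal, so p-values measure the spread between these arrays. With 2 times, a shift of phase and a change of amplitude or level cannot be told apart.

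PER1 is a repressor of the circadian clock. In this clock, CLOCK or its relative NPAS2 pairs with ARNTL (BMAL1) and switches on genes through E-box elements, among them the Per and Cry genes, whose proteins then repress the pair. The nuclear receptors NR1D1 and NR1D2 (REV-ERBs) repress, and the ROR receptors activate, Arntl, Npas2 and Nfil3 through ROR elements, and a further layer of DBP, TEF and HLF as activators and NFIL3 as repressor acts on D-boxes. In liver these factors drive daily rhythms of glucose, glycogen, lipid and haem metabolism.

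Between 58.1% and 60.2% of spots were well above background on the S714G liver arrays at ZT13, and between 48.1% and 57.7% at ZT1. No spot was saturated. None of the 11 hepatocyte markers was at background throughout, and their summed signal overlapped between the times (1117 to 1910 at ZT13 and 1290 to 1492 at ZT1, in multiples of the array's 75th percentile). The ZT13 arrays all lay on one slide and the ZT1 arrays on another, so that no slide gave a value within it. A slide effect could only be estimated through the control liver at ZT13, whose arrays lay on both slides. Levels below are log2 signals relative to the 75th percentile of their array, called log2 units, and apply within a gene and not between genes.

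In S714G liver, 437 of 21861 genes passed an adjusted p of 0.05 (limma over the 12 liver arrays of both genotypes, Benjamini-Hochberg adjustment, two-sided), 2.00% of those tested. Of these, 215 (0.983%) were higher and 222 (1.02%) were lower at ZT13, and 133 of the higher and 126 of the lower ones differed by at least 2-fold. None of the 437 had overlapping values at the 2 times, which was also so for 30.2% of all genes tested. The count was 265 higher and 120 lower when arrays were scaled to their median, since this moved the median of all genes by 0.118 on the log2 scale. With slide as a block, 30 genes passed (0.137%), 21 of them among the 437. Leaving out any single S714G liver array brought the count to between 97, without ZT13 replicate 3, and 151, without ZT13 replicate 2. In the control liver the same fit called 11466 genes (52.4%), 4282 higher (19.6%) and 7184 lower (32.9%) at ZT13. The control ZT1 arrays were dimmer, with 75th percentiles of 406, 731 and 582 against 865 to 1110 on the other liver arrays. They lay on a slide without other liver arrays, so slide and time cannot be told apart in control liver. The part of signal level and slide in this count was not tested.

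Of the 22 core clock genes reported here, 5 were higher and 6 lower at ZT13 in S714G liver. Over all genes tested, 0.983% were called higher and 1.02% lower. The clock activators Arntl, Npas2 and Clock were higher. The D-box activators Dbp and Tef, the repressors Per3 and Ciart and the nuclear receptor gene Nr1d2 were lower. Cry1 and Nfil3 were higher, whereas Per1 and Per2 did not pass. In 9 of these 11 genes, the control liver changed past the threshold in the opposite direction. This was so for 120 (27.5%) of the 437 genes, and 52.4% of all genes passed in control liver, where slide and time cannot be told apart.

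Arntl, the obligate partner in the activator pair (probe at chr7:120457261-120457320, mm9), had 1.42, 1.27 and 1.52 log2 units at ZT13, against -1.98, -1.87 and -2.02 at ZT1. The groups stood far apart, with all ZT13 arrays above all ZT1 arrays. The difference was 3.36 ± 0.21 on the log2 scale (SE, n = 3 and 3), or 10.3-fold higher at ZT13 (limma adjusted p = 3.35e-05). Npas2 had -2.06, -2.24 and -2.03 log2 units at ZT13, against -5.61, -7.02 and -6.29 at ZT1, where it was not well above background on any array. It was therefore at least 5.46-fold higher at ZT13 (limma adjusted p = 0.00117). Such bounds set the mean of the brighter group against the dimmest signal of any probe well above background on each array of the dimmer group, or the probe's own signal where that was higher. Clock had 0.90, 0.92 and 0.71 log2 units at ZT13 and -0.08, -0.13 and -0.61 at ZT1, without overlap, and was 2.17-fold higher (limma adjusted p = 0.0094). The fourth member of the activator list, Arntl2, gave a difference of -0.08 ± 0.21 and did not pass.

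Among the repressors, Cry1 was the gene that was higher at ZT13. It had -2.45, -2.51 and -2.26 log2 units at ZT13, against -5.63, -5.68 and -5.53 at ZT1, where no array was well above background. The increase was at least 4.45-fold (limma adjusted p = 8.43e-05). Its paralogue Cry2 had a difference of -0.65 ± 0.25 and did not pass (limma adjusted p = 0.244). Per3 had -6.32, -6.39 and -7.33 log2 units at ZT13, all not well above background, against -3.93, -3.62 and -3.83 at ZT1, and was at least 2.47-fold lower at ZT13 (limma adjusted p = 0.00486). Ciart, a repressor of the ARNTL and CLOCK pair, had -7.24, -7.41 and -7.22 log2 units at ZT13, again not well above background, against -5.21, -3.54 and -3.31 at ZT1. Its ZT1 replicate 1 lay well below the other ZT1 arrays, and the bound was at least 2.11-fold lower at ZT13 (limma adjusted p = 0.00824). Csnk1e, a kinase that acts on PER proteins, was 1.60-fold lower (limma adjusted p = 0.0472), but passed in none of the fits that left out an array. Its second probe gave 0.03 ± 0.17, and the gene did not pass when its probes were averaged (limma adjusted p = 0.245).

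Per1, the mouse counterpart of the altered human gene, had -0.14, 0.84 and 0.00 log2 units at ZT13, against 0.18, -0.56 and -0.07 at ZT1. The values overlapped, and the difference was 0.38 ± 0.26 (limma adjusted p = 0.591). A dimmer Per1 probe gave -0.51 ± 0.37. In control liver the brighter probe had 1.68, 2.06 and 1.95 log2 units at ZT13, against -3.37, -3.45 and -3.52 at ZT1. The labels do not say whether these mouse probes also bind human PER1 RNA, so they do not check the genotype. Per2 had 0.47, 0.41 and 0.48 log2 units at ZT13 and -0.46, 0.22 and 0.22 at ZT1. The Per2 arrays did not overlap, but the difference of 0.46 ± 0.21 did not pass (limma adjusted p = 0.352). Bhlhe40, another E-box repressor, differed by -0.47 ± 0.34, Bhlhe41 by 0.11 ± 0.33 and the PER kinase gene Csnk1d by -0.01 ± 0.22, none of which passed.

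Dbp had 2.23, 1.90 and 1.98 log2 units at ZT13, against 5.61, 5.45 and 5.45 at ZT1. It was 11.1-fold lower at ZT13, with a difference of -3.47 ± 0.17 and the lowest adjusted p of the core clock genes (limma, 4.61e-06), and a second Dbp probe gave -4.73. Tef had 2.11, 2.11 and 1.93 log2 units at ZT13 and 3.22, 3.26 and 3.28 at ZT1, a 2.30-fold decrease (limma adjusted p = 0.00252). Neither gene had overlapping groups. The third activator of the family, Hlf, differed by -0.12 ± 0.27 and did not pass. Nfil3, which represses through the same D-boxes, had 2.52, 2.25 and 2.37 log2 units at ZT13 and 0.60, 0.96 and 0.78 at ZT1, and was 3.02-fold higher (limma adjusted p = 0.0078).

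Nr1d2 had -1.74, -2.17 and -1.83 log2 units at ZT13, against 1.17, 1.25 and 1.09 at ZT1. It was 8.47-fold lower at ZT13 (limma adjusted p = 8.43e-05). The array design places this brighter probe on chromosome 19 while the gene lies on chromosome 14, but a second probe, placed on chromosome 14, gave -2.70 ± 0.37. Nr1d1 had -0.11, 0.21 and -0.27 log2 units at ZT13 and 0.72, 0.59 and 0.46 at ZT1, and its difference of -0.65 ± 0.21 did not pass (limma adjusted p = 0.158). The ROR genes Rora and Rorb gave -0.09 ± 0.26 and -0.29 ± 0.40 and did not pass.

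**Figure D1:**
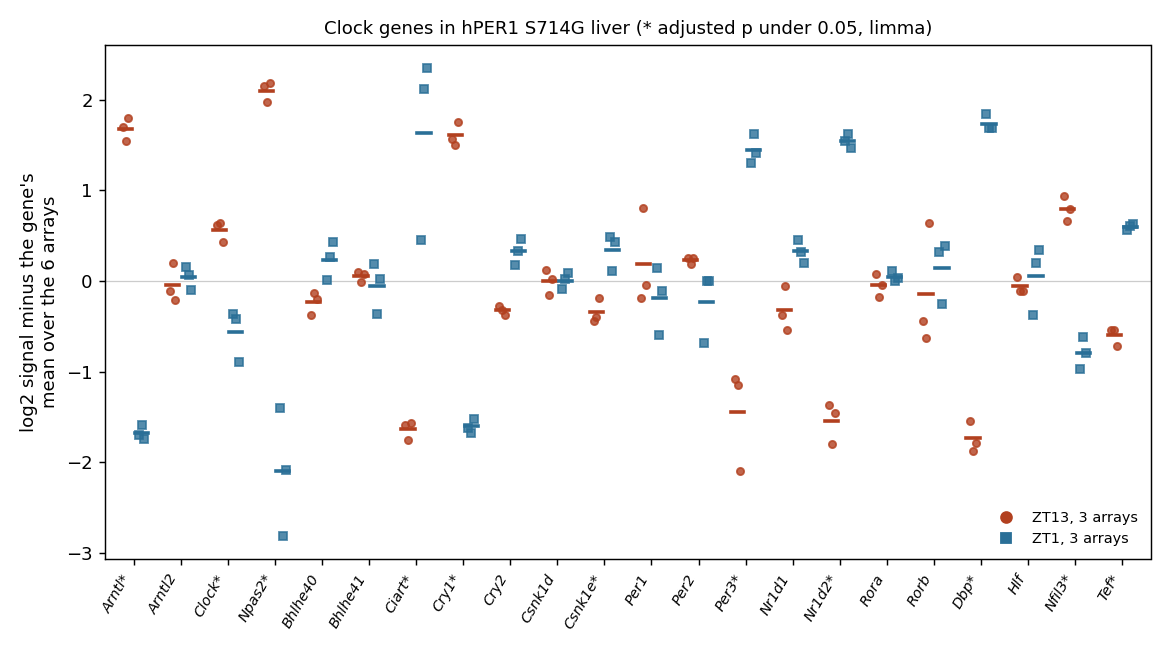
Log2 signal of the 22 core clock genes on each of the 6 S714G liver arrays, with the mean of the gene over these arrays set to 0 (circles ZT13, squares ZT1, short lines group means, asterisks adjusted p under 0.05). Arntl, Npas2 and Cry1 stand above their ZT1 values at ZT13, Dbp, Nr1d2, Ciart and Per3 stand below them, and the Per1 arrays of both times overlap.

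The short stretches below show where motifs of the clock factors lie in the promoters of core clock genes whose levels are described above. They come from RefSeq promoters on GRCm38.p6, 250 bases before to 50 after a start site, and 19 of the 22 core clock genes had such an entry. Both strands were searched for the E-box CACGTG, the D-box TTANGTAA and the ROR elements TAGGTCA and TGGGTCA, and capitals mark each match. The Ciart promoter (chr3:95882252-95882359, minus strand) held 3 E-boxes, and those of Cry1 (chr10:85185094-85185129, minus) and Per1 (chr11:69098768-69098803, plus) held 1 each. Tef had an E-box before each of its 2 start sites, of which the first is shown (chr15:81802531-81802566, plus). Per3 (chr4:151044801-151044885, minus) held 2 D-boxes. The ROR element TAGGTCA lay on the opposite strand before the start of Nfil3 (chr13:52981040-52981066, minus) and just after an Arntl start (chr7:113207530-113207558, plus).
Ciart: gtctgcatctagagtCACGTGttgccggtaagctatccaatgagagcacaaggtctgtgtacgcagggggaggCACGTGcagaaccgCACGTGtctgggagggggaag
Cry1: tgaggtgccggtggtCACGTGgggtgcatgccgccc
Per1: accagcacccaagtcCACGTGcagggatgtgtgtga
Tef: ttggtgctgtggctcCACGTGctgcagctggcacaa
Per3: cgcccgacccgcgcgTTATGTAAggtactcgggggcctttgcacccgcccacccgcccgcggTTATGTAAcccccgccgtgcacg
Nfil3: cgcggcgctcggaacTGACCTActaac
Arntl: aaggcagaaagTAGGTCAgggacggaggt

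An E-box was found for 5 of these 19 genes, Bhlhe41 being the fifth, and for 8.09% of the 27025 genes with a promoter in the table. A D-box was found for 2 of the 19, Per3 and Rorb, and for 2.72% of all genes. TAGGTCA was found for Arntl and Nfil3 and for 2.97% of all genes, and TGGGTCA for none of the 19 and for 4.57% of all genes. Of the genes with an E-box, Cry1 was higher and Ciart and Tef were lower at ZT13, while Per1 and Bhlhe41 did not pass. Both genes with TAGGTCA were higher at ZT13. A match is a run of letters in this window and says nothing of whether a factor binds there.

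Ranked by size, 14 of the largest increases and 15 of the largest decreases that passed are given here, core clock genes among them. Ppp1r3g, a glycogen-targeting subunit of protein phosphatase 1, fell most. It had -5.33, -4.45 and -4.69 log2 units at ZT13, against 1.09, 0.16 and 1.07 at ZT1, a difference of -5.60 ± 0.65 (limma adjusted p = 0.00194). A single ZT13 array was well above background, so the 48.5-fold ratio rests on dim values. Rgs16, a regulator of G protein signalling, had -3.18, -2.82 and -1.76 log2 units at ZT13, against 2.88, 0.80 and 1.07 at ZT1. The groups did not overlap, although ZT1 replicate 1 stood above the other ZT1 arrays, and the difference was -4.17 ± 0.65 (limma adjusted p = 0.011).

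Bhlha15 (Mist1), a transcription factor of secretory cells, had an increase of 4.33 ± 0.80 on the log2 scale. It had -0.50, 0.65 and -0.28 log2 units at ZT13, against -5.02, -5.02 and -3.08 at ZT1, where ZT1 replicate 3 was the array of its group well above background. Its ZT1 level thus rests on dim values, and the difference (limma adjusted p = 0.0204) passed in 1 of the 6 fits that left out an array. Loxl4, a lysyl oxidase-like enzyme that crosslinks matrix proteins, had 0.18, 0.33 and 0.05 log2 units at ZT13 and -2.41, -2.71 and -2.75 at ZT1. It was 7.02-fold higher (limma adjusted p = 0.00117), and its second probe gave 2.89. Ppard, the nuclear receptor PPAR delta, had 1.43, 1.77 and 1.66 log2 units at ZT13 and -1.14, -1.24 and -1.13 at ZT1, 6.93-fold higher (limma adjusted p = 7.16e-05). In both genes the arrays of the times were well separated.

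Hspa1a, an inducible HSP70 chaperone gene, had 2.35, 1.87 and 1.41 log2 units at ZT13 and -1.22, -0.71 and -0.56 at ZT1, and was 6.53-fold higher (limma adjusted p = 0.000509). Its near-identical copy Hspa1b had no probe under that name on the array, and the probe may read both. Dnmt3b, a de novo DNA methyltransferase, was 5.46-fold higher (limma adjusted p = 0.00106), with all 3 of its probes between 2.45 and 2.47 on the log2 scale.

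The rest of the largest increases were Nat8f6 (2.35), whose close relatives may share its probe, Srgap3 (2.14), Srms (1.98), the endoplasmic reticulum gene Creld2 (1.97), Pitx3 (1.97) and Lonrf3 (1.93), each as ZT13 minus ZT1 on the log2 scale. The Pitx3 probe (chr19:46210179-46210238, mm9) lies close to that of Elovl3 (chr19:46209762-46209821), and they moved in the same direction in S714G liver. The further decreases were Mterf2 (-2.97), a mitochondrial transcription factor, Gnat1 (-2.96), the pro-apoptotic BH3 gene Bmf (-2.85), Gdap10 (-2.68), the small MAF factor gene Maff (-2.63), Gpcpd1 (-2.44), Sun3 (-2.36), the pseudokinase gene Trib3 (-2.35) and Klrc1, which was at least 2.61-fold lower. Gdap10 had a usable value on 2 of the 3 ZT1 arrays. The Mterf2 probe (chr10:84582231-84582290) lies near that of Cry1 (chr10:84594731-84594790), which moved the other way.

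**Figure D2:**
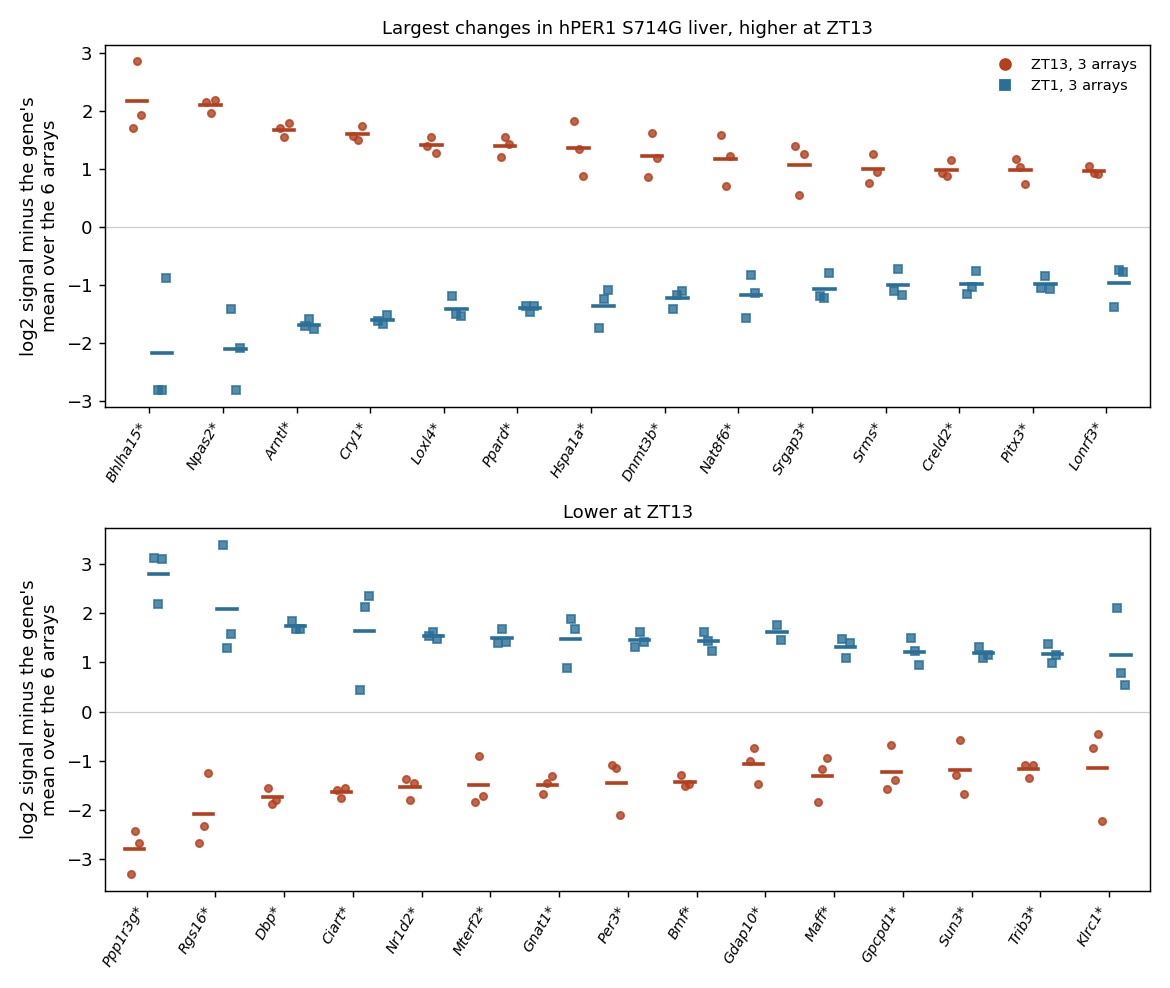
Log2 signal of 14 genes among the largest increases (top) and 15 among the largest decreases (bottom) at ZT13 on each of the 6 S714G liver arrays, with the mean of the gene set to 0 (circles ZT13, squares ZT1, short lines group means; all passed an adjusted p of 0.05, as the asterisks mark). No ZT13 value overlaps a ZT1 value of the same gene, and single arrays of Bhlha15, Rgs16, Ciart and Klrc1 stand apart at ZT1.

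Of 18 clock-linked output genes of liver, 4 were higher and 3 were lower at ZT13, where 0.983% of all genes were called higher and 1.02% lower. Their median difference was 0.03 on the log2 scale, the same as that of all genes tested (0.03). Beside Ppp1r3g and Rgs16, Lpin1 was lower. Lpin1, which makes diacylglycerol and coactivates PPAR alpha, had 0.98, 0.81 and 0.71 log2 units at ZT13, against 2.21, 1.95 and 2.26 at ZT1, a difference of -1.31 ± 0.22 (limma adjusted p = 0.0145). The fatty acid elongase gene Elovl3 had 3.59, 3.28 and 2.90 log2 units at ZT13 and 1.51, 1.43 and 1.22 at ZT1, and was 3.67-fold higher (limma adjusted p = 0.00323). The tubulin gene Tubb2a was 2.93-fold higher, the glycogen-targeting gene Ppp1r3c 2.14-fold and Alas1, which starts haem synthesis, 1.95-fold higher (limma adjusted p = 0.0125, 0.00801 and 0.0285). Tubb2a has pseudogenes that its probe may share. Usp2 (-1.33 ± 0.32), Coq10b (-0.83 ± 0.21), Wee1 (-0.86 ± 0.22), Nampt (0.05 ± 0.21), Gys2 (0.04 ± 0.17) and Mfsd2a (-0.22 ± 0.38) did not pass.

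Of 17 heat shock and cold-inducible genes, 5 were higher at ZT13 (0.983% of all genes) and none was lower (1.02%), with a median of 0.42 on the log2 scale against 0.03 for all genes. Apart from Hspa1a these were the HSP110 gene Hsph1 (1.29 ± 0.22) and the co-chaperone genes Dnajb1 (1.24 ± 0.16), Bag3 (0.99 ± 0.16) and Chordc1 (0.87 ± 0.13). The heat shock factor gene Hsf1 (0.01 ± 0.21) and the cold-inducible genes Cirbp (-0.03 ± 0.20) and Rbm3 (0.11 ± 0.16) did not pass. In contrast with most clock genes, the 5 were higher at ZT13 in control liver as well, and the difference between genotypes passed for none of them (limma adjusted p from 0.187 to 0.773). That difference passed for 5 other members of the 17, and for 32.1% of all genes tested.

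Of 20 genes of the unfolded protein response of the endoplasmic reticulum, 4 were higher and none lower, and all 20 differences were above 0, with a median of 0.52. Of all genes tested, 0.983% were called higher and 54.8% had a difference above 0. Creld2 had 4.53, 4.48 and 4.75 log2 units at ZT13, against 2.45, 2.56 and 2.84 at ZT1, and was 3.92-fold higher (limma adjusted p = 0.00801). The secreted factor gene Manf differed by 1.33 ± 0.22, Sdf2l1 by 1.22 ± 0.28 and Sel1l, of the degradation machinery, by 0.88 ± 0.17. Sdf2l1 and Sel1l (limma adjusted p = 0.0496 and 0.0274) passed in no fit that left out an array. The chaperone gene Hspa5 (0.55 ± 0.14), the sensor gene Ern1 (0.52 ± 0.13), Hyou1 (1.70 ± 0.40) and Xbp1 (0.13 ± 0.15) did not pass. Of the 4 genes that rose, Creld2, Manf and Sdf2l1 changed differently from control liver, where they gave -0.14, 0.19 and -0.22. The median of the whole list was above that of all genes in control liver as well, at 0.34 against -0.21.

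For the 2 lists that follow, the shares called over all genes tested were 0.983% higher and 1.02% lower. Of 14 amino acid response genes, Ddit3 (CHOP) was higher (1.04 ± 0.19) and Trib3 was lower (-2.35 ± 0.27). Trib3 had -1.15, -1.40 and -1.15 log2 units at ZT13 and 1.32, 0.93 and 1.10 at ZT1, and Atf4, which drives this response, gave 0.34 ± 0.18 and did not pass. Of 14 immediate early genes tested, Atf3 (1.30 ± 0.23) and Jun (0.99 ± 0.18) were higher and Junb (-1.66 ± 0.35) was lower. Egr1 (-2.46 ± 0.61) did not pass, and Fos was too dim to be tested.

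Between 2 and 3 members passed in each of 4 lists of intermediary metabolism, where 2.00% of all genes passed. Of 16 genes of glycolysis, glucose uptake and fed signals, the feeding-induced Angptl8 (1.29 ± 0.23) and Pfkfb3 (0.81 ± 0.18) were higher, and Txnip, which restrains glucose uptake, was lower (-1.03 ± 0.22). The second Pfkfb3 probe gave -0.24 ± 0.34, and Pfkfb3 did not pass when its probes were averaged (limma adjusted p = 0.54). Angptl8 had 6.73, 6.76 and 6.36 log2 units at ZT13, against 5.22, 5.21 and 5.55 at ZT1. Of 13 glycogen genes, Ppp1r3c was higher and Ppp1r3g lower, while the glycogen enzymes Gys2, Gbe1 and Pygl lay between 0.04 and 0.05 and did not pass. Of 24 lipogenic genes, 2 lipin genes were lower, Lpin1 and Lpin2 (-1.17 ± 0.18), and the ATP citrate lyase gene Acly (-0.64 ± 0.20) did not pass. A second Lpin2 probe gave -0.66 ± 0.19 and did not pass (limma adjusted p = 0.122). Of 16 genes of gluconeogenesis and fasting, Lpin2 and the serine dehydratase gene Sds (-1.06 ± 0.22) were lower, and Pck1 (-0.57 ± 0.22) and G6pc (0.05 ± 0.24) did not pass.

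Single members passed in a further group of lists, where 2.00% of all genes passed. These were Ulk1 of 17 autophagy genes (-1.10 ± 0.17), Tsc22d3 of 16 glucocorticoid-responsive genes (1.10 ± 0.20), Alas1 of 20 haem and xenobiotic genes, Plin4 of 15 lipolysis and lipid droplet genes (1.69 ± 0.34), Nolc1 of 24 ribosome biogenesis genes (1.19 ± 0.22) and Elovl3 of 19 sex-biased liver genes. No member passed among 16 folate genes, 28 PPAR alpha and fatty acid oxidation genes, 24 cholesterol genes, 18 bile acid genes, 19 acute phase genes, 19 interferon-stimulated genes, 18 cell cycle genes, 16 NAD and sirtuin genes, 20 secretion genes, 24 ribosomal protein genes and 22 oxidative phosphorylation genes. Among these, 12 of the 20 secretion genes and 8 of the 24 cholesterol genes had no overlap between the times, against 30.2% of all genes.

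**Figure D3:**
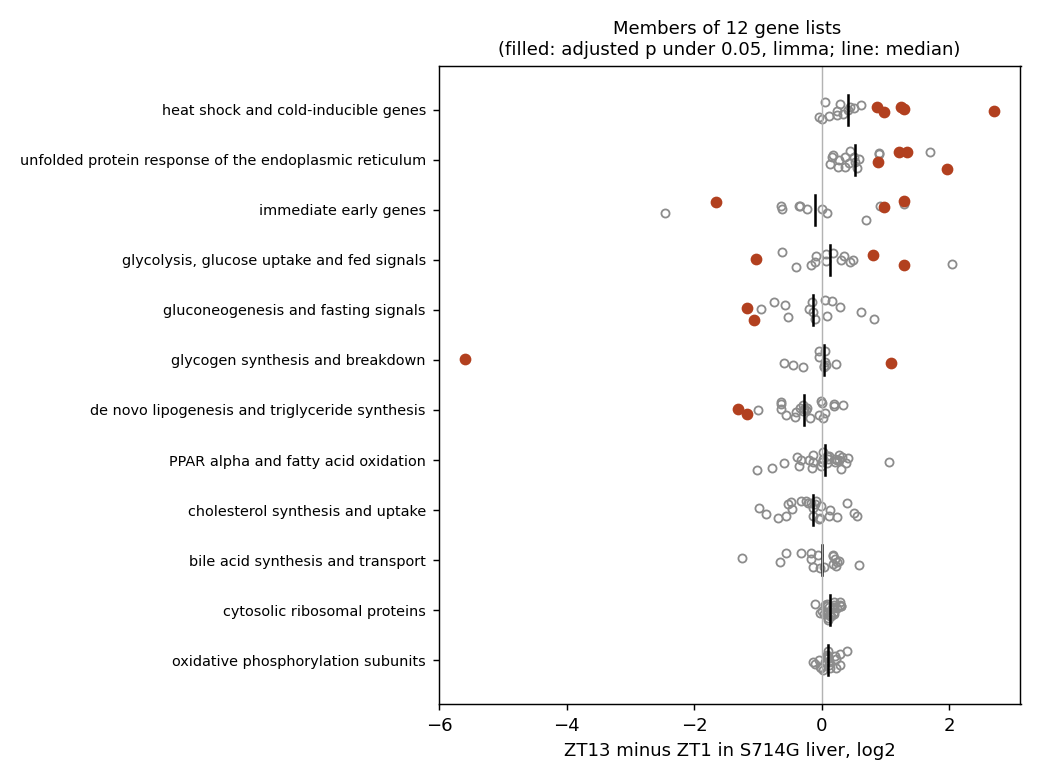
Difference ZT13 minus ZT1 in S714G liver, on the log2 scale, for each tested member of 12 gene lists (filled points adjusted p under 0.05, open points not, vertical lines list medians). All 20 members of the unfolded protein response list lie above 0, Ppp1r3g stands alone at -5.60, and the ribosomal protein and oxidative phosphorylation genes lie close to 0.

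Markers of other cell types were checked in the same fit. The differences of all 12 macrophage and Kupffer cell markers were below 0, with a median of -0.45, but none passed. Over all genes tested, 54.8% of differences were above 0. Their summed signal was 73.4 to 102.2 at ZT13 and 104.8 to 118.9 at ZT1. The 10 endothelial markers had a median of -0.26 and summed to 39.3 to 42.4 at ZT13 and 55.4 to 56.4 at ZT1, without overlap. B cell markers summed to 1.03 to 1.86 at ZT13 and 2.23 to 2.64 at ZT1. Of the 7 on the array 4 were tested, and Igkc was at background, so this sum holds dim signal. The median difference of the tested B cell markers was -0.32, and 0.20 with slide as a block over the 12 liver arrays. Fewer cells of a type and less RNA per cell cannot be told apart in these bulk samples. Single markers passed in 3 lists: the cholangiocyte marker Sox9 (1.22 ± 0.17), the neutrophil marker Retnlg (-1.75 ± 0.32) and the pancreas acinar marker Cela2a (-1.82 ± 0.36). The share that passed over all genes tested was 2.00%. Other members went the other way from Retnlg and Cela2a: 3 of 7 neutrophil and 3 of 5 acinar markers tested had differences above 0. The acinar markers summed to 10.8 to 14.07 at ZT13 and 9.91 to 10.77 at ZT1, so the sum was higher at ZT13. Of the other acinar markers, Cpa1, Ctrb1, Pnlip, Prss2 and Try4 were at background on every array. Sox9 was 1 of 7 cholangiocyte markers tested, all with differences above 0, with Cftr at background. The part of these cell types in the differences above was not tested.

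The control liver answers whether the S714G differences between the times were those seen with S714. Of the 437 genes, 275 also passed in control liver, 62.9% of the S714G list and 2.40% of the control list, where 52.4% of all genes passed. The direction was the same in 155 and opposite in 120. The difference between the genotypes in the change passed for 7008 of 21861 genes (32.1%), and for 270 of the 437. This split was 4388 (20.1%) with a more positive and 2620 with a more negative change in S714G liver, but 1307 and 5561 with median scaling and 2971 and 2917 with quantile normalization, so its direction over all genes depends on the scaling. Median scaling moved the median of all genes by -0.549. All control ZT1 arrays lay on a slide of their own among the liver arrays, so that slide and group cannot be told apart in this comparison within liver. With the adipose arrays added and slide as a block, 282 genes passed.

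For 26 of the 29 largest changes the genotypes differed (limma adjusted p of the difference under 0.05), and in 19 of them the control liver passed in the opposite direction. Hspa1a, Trib3 and Klrc1 were those for which the genotypes did not differ past the threshold. Over all genes tested, the genotypes differed for 32.1%, and 52.4% passed in control liver. The 29 genes were picked by the size of the S714G change, which is part of the difference tested. These counts therefore do not test whether large S714G changes differ more often from control liver. Npas2 was at least 5.46-fold higher at ZT13 in S714G liver and at least 11.1-fold lower in control liver, where no ZT13 array was well above background. Arntl changed by 3.36 in S714G and by -3.33 in control liver, a difference of 6.68 ± 0.29. Dbp changed by -3.47 in S714G and by 3.28 in control liver. Ciart and Per3, at least 2.11-fold and 2.47-fold lower at ZT13 in S714G liver, were at least 5.46-fold and 2.55-fold higher in control liver, where neither was well above background on a ZT1 array. Nfil3 and Clock were higher at ZT13 in S714G liver (1.60 and 1.12) and lower in control liver (-2.25 and -1.43), and Nr1d2 and Tef were lower in S714G liver (-3.08 and -1.20) and higher in control liver (1.44 and 2.27). In these 9 clock genes both genotypes passed with opposite signs.

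The remaining clock genes followed other patterns. Cry1 was higher at ZT13 in S714G liver but gave -0.10 ± 0.23 in control liver, and that difference passed (limma adjusted p = 0.000126). Per1, Per2 and Bhlhe40 did not pass in S714G liver (0.38, 0.46 and -0.47) but were higher at ZT13 in control liver (5.34, 3.91 and 3.90), and the genotypes differed for each. Csnk1e moved the same way in both genotypes, with -0.68 in S714G liver and -0.56 in control liver. Among the outputs, Lpin1 gave -1.31 in S714G and 4.83 in control liver, Usp2 -1.33 and 5.45, Loxl4 2.81 and -4.28 and Ppp1r3g -5.60 and 2.02. Bmf (-2.85 in S714G and -0.20 in control liver), Lonrf3 (1.93 and -0.12) and Creld2 (1.97 and -0.14) passed in S714G liver but not in control liver, and the genotypes differed for each of these.

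**Figure D4:**
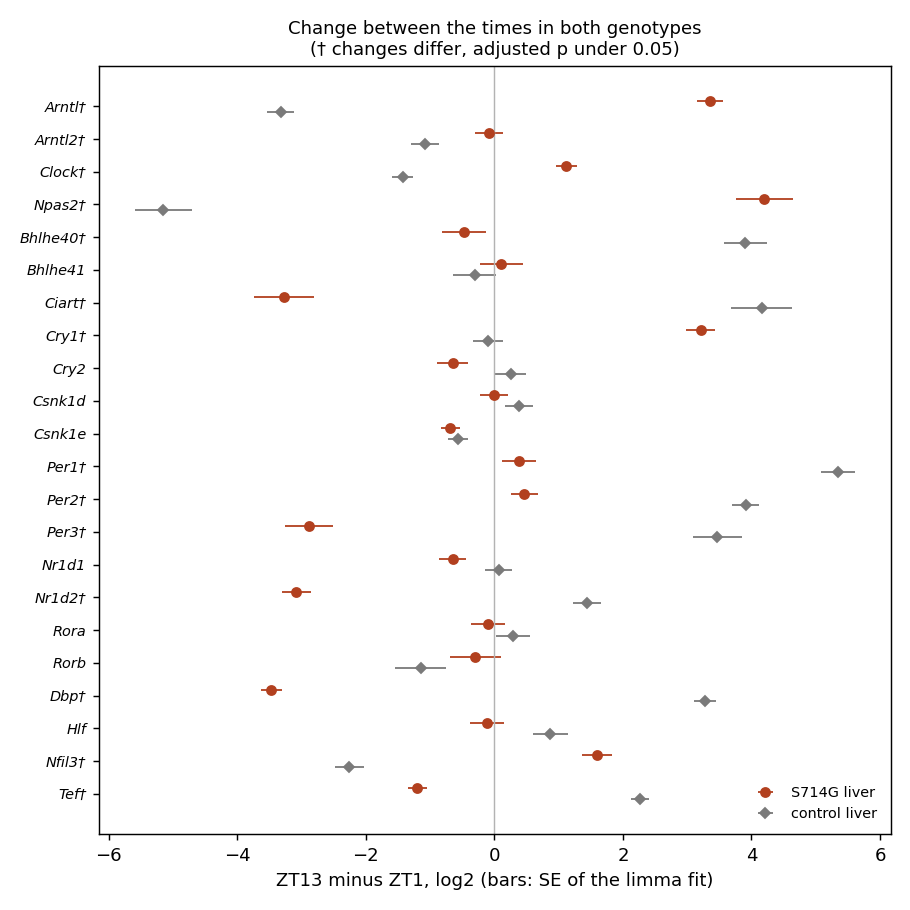
Difference ZT13 minus ZT1 on the log2 scale for the 22 core clock genes in S714G liver (circles) and control liver (diamonds), with SE from the limma fit as bars and daggers where the genotypes differed at an adjusted p under 0.05. Npas2, Per3, Ciart and Cry1 are drawn at their fitted values although some of their groups were not well above background. Arntl lies at 3.36 in S714G and -3.33 in control liver, and Dbp at -3.47 in S714G and 3.28 in control liver.

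White adipose tissue of the same genotype gives the change in a second tissue. Its ZT13 arrays lay on the slide that also held the S714G liver ZT13 arrays, and none of its ZT1 arrays did. No slide thus held both times of S714G adipose tissue, and shared slides and shared changes over the day cannot be told apart here. In a fit of all 24 arrays, the change differed between liver and adipose tissue for 310 of 24323 genes (1.27%), 228 (0.937%) with a more positive and 82 (0.337%) with a more negative change in liver. With median scaling these were 102 and 92. In adipose tissue alone 3896 genes passed (16.0%), 1214 higher (4.99%) and 2682 lower at ZT13. Of the 11 core clock genes called in S714G liver, 8 passed in the same direction in adipose tissue. Arntl changed by 3.36 in S714G liver and 3.03 in adipose tissue, Nfil3 by 1.60 and 2.44, Nr1d2 by -3.08 and -2.60 and Dbp by -3.47 and -2.18, and none of these differences between the tissues passed. Cry1 was at least 4.45-fold higher at ZT13 in liver and at least 2.71-fold higher in adipose tissue. Ciart, among the 8, had no adipose array of these well above background. Per3 was the exception among the repressors, at least 2.47-fold lower at ZT13 in liver and with a change of 0.29 on the log2 scale in adipose tissue, which differed (limma adjusted p = 0.0264). Nr1d1 showed the reverse, with -0.65 in liver and -2.94 in adipose tissue (limma adjusted p = 0.00712).

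Several of the largest liver changes differed from those in adipose tissue. Loxl4 changed by 2.81 in liver and -0.97 in adipose tissue, Creld2 by 1.97 and -0.60, and Hspa1a by 2.71 and -0.07, and each of these differences passed. Ppard was higher at ZT13 in both tissues, by 2.79 in liver and 0.75 in adipose tissue, and the size differed (limma adjusted p = 0.00315). Lonrf3 changed by 1.93 in liver and 2.86 in adipose tissue, and this difference of -0.93 ± 0.38 did not pass (limma adjusted p = 0.192). The slide of adipose ZT1 replicate 3 differed from that of the other adipose ZT1 arrays, and without this array 6840 genes differed between the tissues. Leaving out any other array gave between 80 and 144.

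The slide block over the 12 liver arrays was the alternative that ended most calls. Of the 61 called genes named here, 8 kept an adjusted p under 0.05 (limma): Arntl, Cry1, Nr1d2, Dbp, Ppard, Creld2, Ppp1r3g and Tubb2a. No named gene changed direction. Arntl gave 4.06 ± 0.29 with the block, Dbp -3.77 and Nr1d2 -3.62, and the median SE over all genes was 0.39 with the block and 0.22 without it. Npas2 did not pass with the block (limma adjusted p = 0.156), nor did Per3 (0.263), Ciart (0.205), Clock (0.367), Nfil3 (0.315), Tef (0.18) or Rgs16 (0.204). Of all 437 called genes, 70 (16.0%) passed in all 6 fits that left out an S714G liver array, and 31 of the 61 named ones did, among them Arntl, Npas2, Clock, Cry1, Per3, Ciart, Dbp, Tef, Nfil3 and Nr1d2. Alas1, Csnk1e, Ddit3, Klrc1, Pfkfb3, Retnlg, Sdf2l1, Sel1l, Srgap3, Srms and Txnip passed in none of these 6 fits.

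**Figure D5:**
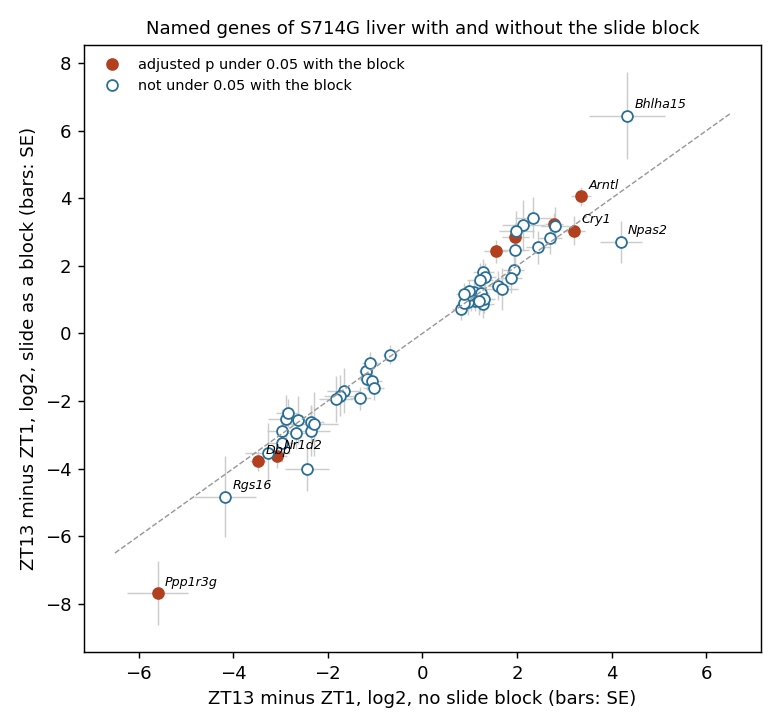
Difference ZT13 minus ZT1 on the log2 scale for the 61 called genes named in the text, without a slide block (horizontal) and with slide as a block over the 12 liver arrays (vertical), with SE from the fits as bars and a dashed line of equal values. All points keep their sign, and the 8 filled ones, Arntl, Dbp and Ppp1r3g among them, keep an adjusted p under 0.05.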

How the data were processed

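Cy3 Agilent mouse arrays measured total RNA. Per the file headers, the scanner files hold intensity per spot from Agilent Feature Extraction 10.7.3.1, already background-subtracted, with 0 or 1 flags. The deposited values are log2 intensity minus a constant per array, and its scale, lack of centring by probe and direction were settled by matching the scanner intensity to within 0.01 for at least 99.3% of probes. They were used as an alternative.

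Control spots and outlier-flagged spots (0.238% to 0.685% per S714G liver array) were left out, spots of a probe were averaged, and log2 processed signal was set relative to the 75th percentile of its array. A probe was fitted where some liver group had it well above background on every array. Of 55681 probes, 26762 were named by accession, 3819 by symbol, 639 by synonym and 24461 as in the files. Probes tiling the same named region were pooled, and the brightest probe stood for a gene. Positions are those of the design, mm9; exon or UTR is not given.

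limma 3.58.1 in R 4.3.3 fitted 4 group means over 12 liver arrays (or 8 over 24 for tissues). On simulated data with 21861 genes, the S714G liver test recovered 26 of 50 genes raised by 1, 26 of 50 lowered by 1, 45 of 50 raised by 2 and 41 of 50 lowered by 2 on the log2 scale, with 6 false calls. Recovery and false calls in the presence of a slide effect were not tested. The number of arrays limits the precision. Named genes were the core clock genes, the 15 largest changes per direction, 5 per direction for other comparisons and up to 4 members per list. Hsph1 and Tubb2a were added after their values were seen, and other genes in list counts are given for context. A few genes were fitted with the rest but are not reported here and enter no list count. The genes, the 30 pathway and 13 marker lists and the tests were chosen with earlier results of these data known. Alternatives were other background, scaling, filter, probe and array choices, slide and replicate blocks and each array left out. Python 3.11.15 with matplotlib 3.10.9 drew the figures, and data.table (version 1.17.8) and pandas 2.3.3 handled the values.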

Additional observations from a re-analysis of the deposited data

Results flagged for a closer look

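The results here are set apart because the ZT13 minus ZT1 change in S714G liver differed, by a limma test of the difference itself with an adjusted p under 0.05, from that in control liver or in S714G adipose tissue. All values are differences of ZT13 minus ZT1 changes on the log2 scale, so that a positive one is a more positive change in S714G liver. Over all genes, 7008 differed from control liver and 310 from adipose tissue. With slide as a block over all 24 arrays these counts were 282 and 40. Median scaling moved the median difference from control liver over all genes by -0.549, so small differences below depend on the scaling.

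Against control liver, the activator genes gave Arntl (6.68), Clock (2.55) and Npas2 (9.35). The repressors gave Per3 (-6.36), Cry1 (3.31) and Ciart (-7.43), and Nr1d2, the D-box factors and Nfil3 gave Nr1d2 (-4.52), Dbp (-6.75), Tef (-3.46) and Nfil3 (3.85). The fitted values of Npas2, Per3, Ciart and Cry1 rest on groups with no array well above background, and the bounds were at least 5.92 for Npas2 and 2.25 for Cry1, and at most -2.65 for Per3 and -3.52 for Ciart.

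Among the largest increases at ZT13 in S714G liver, the difference from control liver was Bhlha15 (3.78), Loxl4 (7.09), Ppard (4.57), Dnmt3b (4.60), Nat8f6 (2.88), Srgap3 (3.30), Srms (3.35), Creld2 (2.11), Pitx3 (4.23) and Lonrf3 (2.05). Among the largest decreases it was Ppp1r3g (-7.62), Rgs16 (-5.95), Mterf2 (-1.40), Gnat1 (-5.93), Bmf (-2.65), Gdap10 (-4.21), Maff (-4.50), Gpcpd1 (-5.75) and Sun3 (-3.40).

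The lipid and glucose genes that differed from control liver were Elovl3 (4.59), Lpin1 (-6.14), Lpin2 (-3.34), Ppp1r3c (2.02), Sds (-1.67), Angptl8 (1.16) and Pfkfb3 (-2.36). The others were Ulk1 (-2.20), Sox9 (2.99), Alas1 (-1.90), Tubb2a (4.40), Atf3 (1.11), Cela2a (-2.08), Manf (1.14) and Sdf2l1 (1.43). Alas1 and, by its brightest probe, Pfkfb3 were higher at ZT13 in both genotypes, by less in S714G liver. In S714G liver neither gene passed in any fit that left out an array, and the second Pfkfb3 probe gave -0.24 ± 0.34.

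Against S714G adipose tissue, more positive changes in liver were those of Bhlha15 (4.996), Loxl4 (3.78), Ppard (2.04), Hspa1a (2.78), Dnmt3b (2.41), Nat8f6 (2.51), Creld2 (2.57), Pitx3 (2.75), Tubb2a (1.49), Atf3 (2.55), Plin4 (2.05) and Manf (1.64). More negative changes in liver were those of Per3 (-3.18), Mterf2 (-2.47), Bmf (-2.17), Gdap10 (-3.93), Ulk1 (-1.15) and Lpin1 (-1.65). The neutrophil marker Retnlg gave 3.39, since it was lower at ZT13 in liver and lower still in adipose tissue.

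The rule on the largest differences between the tissues also named Ccr3 (4.53), Tmem171 (3.69) and Meig1 (3.50) on the positive side and Tectb (-3.95), Gstt4 (-3.31) and Syt12 (-3.10) on the negative side. Of these values, the ones with a bound were Ccr3 (at least 3.35), Meig1 (at least 1.68), Tectb (at most -2.01) and, above, Per3 (at most -1.59). Bhlha15, Nat8f6 and Tmem171 were not well above background on any of these adipose arrays, nor Gstt4 and Syt12 on any S714G liver array, so that their fitted values are no measured sizes.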

How the results depend on the processing

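The 437 genes called in S714G liver became 89 without the filter on dim probes, 1204 with the 6 compared arrays alone, 258 over all 24 arrays, 30 with slide as a fixed block over liver and 64 over all arrays, 1888 with slide as a random block, 277 with a replicate block and 259 where a 2-fold difference was required. Leaving out an array gave 97 to 151. The difference from control liver was called for 7008 genes, 3370 over all arrays and 282 with the slide block, and leaving out an array gave 4939 to 9531. The slide block could not be fitted for it within liver. The difference from adipose tissue was called for 310 genes, 194 with median scaling, 99 without the filter, 159 with the compared arrays alone, 40 and 87 with slide as a fixed and a random block and 173 with a replicate block. Leaving out an array gave 80 to 6840, the last without adipose ZT1 replicate 3. Same-numbered arrays of the 2 times correlated at 0.135, 0.024 and 0.118 in their deviations, so the numbers were not taken as pairs. Under the replicate block 52 of 61 named genes kept their call, and 266 of the 437 did. The one reversal was Cela2a, whose difference between genotypes was 0.22 with the slide block over all arrays, and the cause was not tested. Normexp background, quantile or median scaling, kept outlier spots, the deposited values, the mean of a gene's probes and a stricter filter gave 348 to 494 genes in S714G liver. Dim probes limit what can be seen for genes near background, such as Npas2, Per3 and Ciart.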
